A study of Mus musculus with 39 samples.

Results

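Macrophages of the mouse testis were followed through 34 genes known from cells of the monocyte and macrophage lineage, read from arrays of whole testis RNA. The genes were taken from a list of symbols, and each was represented by the probe set annotated with that symbol alone. All 34 were measured, by 1 probe set each, out of 22180 genes with such a probe set, and all 34 passed the filter on dim signals that left 19007 genes for testing. Values are intensities on the log2 scale, on which a difference of 1 is a 2-fold change, and "called" means an adjusted p below 0.05 in limma over all 19007 genes.

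Macrophages are phagocytes that live in tissues and depend on the growth factor receptor Csf1r. In the mouse testis one population lies in the interstitium, beside the Leydig cells that make androgen, and is known for high Csf1r and Mrc1. Another lies on the outside of the seminiferous tubules and is known for MHC class II. The haemoglobin scavenger receptor Cd163, the mannose receptor Mrc1, the hyaluronan receptor Lyve1 and the folate receptor Folr2 are often used as markers of long-lived resident macrophages, and these 4 are called the resident type genes below.

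The mutant mice carried floxed Prkar1a on both alleles (Prkar1a fl/fl) together with 1 of 3 Cre transgenes, Sf1:Cre in the line called prKO, Amh:Cre in srKO and Cyp11a1:Cre in lrKO, and the wild-type (WT) mice were their littermates. Prkar1a encodes a regulatory subunit that keeps protein kinase A inactive. The promoters behind the Cre transgenes belong to genes of somatic gonadal and adrenal precursors (Sf1), Sertoli cells (Amh) and steroid-producing cells (Cyp11a1), so Cre was not aimed at macrophages. At 2 weeks of age there were 4 prKO, 4 srKO, 4 lrKO and 8 WT arrays, and at 2 months 3 prKO, 4 srKO, 4 lrKO and 8 WT arrays. The titles number the arrays as biological replicates, and the label on RNA extraction names adrenal glands while every other label names testis.

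The targeted gene was read first. At 2 weeks Prkar1a lay between 8.04 and 8.33 in prKO, between 8.36 and 8.64 in srKO and between 8.98 and 9.08 in lrKO, against 8.84 to 9.14 in WT. At 2 months it lay between 8.36 and 8.66 in prKO, between 8.98 and 9.18 in srKO and between 8.86 and 8.90 in lrKO, against 8.61 to 9.002 in WT, so that 1 of 3 prKO arrays lay below every WT array and 3 of 4 srKO arrays above. In limma it was lower than WT in prKO at both ages (by -0.78, adjusted p = 4.52e-07, and by -0.30, adjusted p = 0.00782) and in srKO at 2 weeks (-0.48, adjusted p = 0.00219), higher in srKO at 2 months (0.24, adjusted p = 0.0302), and not called in lrKO at either age. No source used here says whether the probe set covers the floxed part, and srKO and lrKO below mean the arrays labelled srKO and lrKO. Among markers of possible admixture, the mean level of 5 epididymal genes was 5.96 in prKO 2-week replicate 3 and 7.76 in prKO 2-month replicate 1, against a highest value of 5.63 in all other arrays. The WT arrays of 2 weeks also stood apart by number: the member genes were higher in replicates 1 to 4 than in replicates 5 to 8 by a median of 0.30, in 30 of 34 genes, and 12 of 34 did not overlap. At 2 months that median was -0.06. Both readings cover the members alone, and whether all genes split in the same way was not tested.

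At 2 weeks the resident type genes were the part of the list that stood out in prKO testes. All 4 of them were higher than in WT, with a median difference of 0.88, whereas 8 of the other 30 genes were higher, with a median of 0.24. In all, 12 of 34 genes were called higher and 0 lower, against 7.90% of all tested genes called higher and 2.59% called lower, and the median was 0.29 for the list and -0.01 for all genes. In the same arrays markers of Leydig cells were higher in 5 of 5 genes (median 1.86) and markers of blood endothelium in 4 of 6 (median 0.42), and their part in the macrophage values was not tested.

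Lyve1 measured 9.51, 8.67, 9.16 and 9.66 in the 4 prKO arrays, and its lowest, median and highest values in the 8 WT arrays were 7.12, 7.66 and 8.40. Every prKO array lay above every WT array, and the difference of 1.54 ± 0.20 (SE) was a 2.91-fold higher signal (adjusted p = 3.47e-05). Cd163 measured 5.79, 5.81, 5.88 and 6.26 in prKO, against 4.88, 5.03 and 5.17 as lowest, median and highest in WT. These groups did not overlap either, and Cd163 had the smallest adjusted p of the list (0.92 ± 0.08, adjusted p = 4.1e-07). Mrc1 measured 10.23, 10.07, 10.10 and 10.31 in prKO, against 8.90, 9.32 and 9.88 in WT, again without overlap (0.85 ± 0.15, adjusted p = 0.000908). Folr2 measured 8.01, 7.75, 8.06 and 8.20 in prKO, against 6.97, 7.44 and 8.00 in WT, so that 1 prKO array lay inside the WT range (0.50 ± 0.16, adjusted p = 0.0454).

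**Figure D1:**
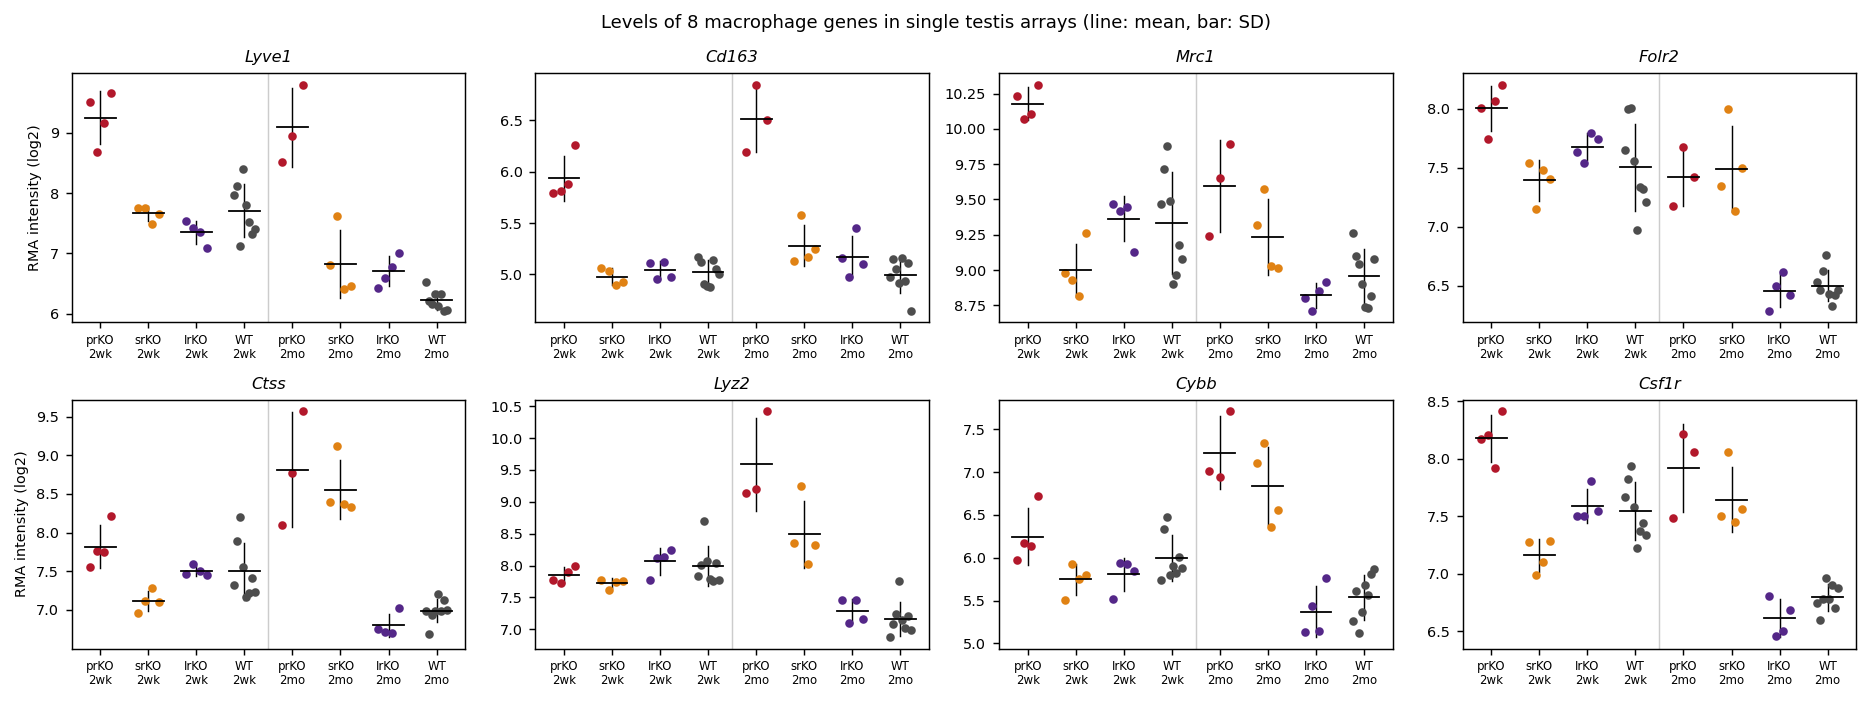
Log2 intensity (vertical axis, RMA) of the 4 resident type genes (upper row) and of Ctss, Lyz2, Cybb and Csf1r (lower row) in single arrays of the 8 groups, with points for arrays, horizontal lines for means and vertical bars for the SD. Lyve1 and Cd163 were high in prKO at both ages, while Ctss, Lyz2 and Cybb were high in prKO and srKO at 2 months.

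Outside the resident type, the called genes at 2 weeks were spread over several roles. Of the 4 lineage genes only Csf1r, the receptor for Csf1 and Il34, was called (0.63 ± 0.12, adjusted p = 0.00171), with 8.17, 8.20, 7.92 and 8.42 in prKO against 7.22, 7.51 and 7.94 in WT. The pan-macrophage surface gene Adgre1 differed by 0.35 ± 0.18 (adjusted p = 0.238) and the transcription factor gene Spi1 (PU.1) by 0.07 ± 0.06 (adjusted p = 0.493). Of the 3 chains of complement C1q, which tags dying cells for uptake, C1qb (0.80) and C1qc (0.48) were higher and C1qa (0.16 ± 0.10) was not called. The sialic acid receptor Siglec1 (0.63), the scavenger receptor Msr1 (0.44), the platelet factor 4 gene Pf4 (0.41), the membrane protein gene Ms4a7 (0.52) and the costimulatory gene Cd86 (0.37) made up the rest. None of the 4 leukocyte surface genes (Ptprc, Cd53, Laptm5, Itgam), of the 5 Fc receptor and adaptor genes or of the 5 lysosomal and killing genes (Cd68, Ctss, Lyz2, Mpeg1, Cybb) was called, and Lyz2 (-0.15 ± 0.13) and Mpeg1 (-0.40 ± 0.18) had negative differences.

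The WT arrays chosen for the comparison moved these counts. Against WT replicates 1 to 4 alone 5 genes were called (Lyve1, Cd163, Mrc1, C1qb and Csf1r, all higher), and against WT replicates 5 to 8 alone 22 were called, 20 higher and 2 lower (Mpeg1 and Fcgr3). The share of all genes called in these fits is not given here, so the counts describe the members alone. Folr2 lost its call against WT replicates 1 to 4 (0.20, adjusted p = 0.466), and also without any 1 of WT replicates 5, 6, 7 or 8 or of prKO replicates 1, 3 or 4 (adjusted p between 0.0642 and 0.146). Msr1 lost it without WT replicate 6, 7 or 8 or prKO replicate 1, 3 or 4, Ms4a7 without prKO replicate 1, 2 or 4, C1qc without prKO replicate 4, and Pf4 without prKO replicate 1.

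In srKO testes of 2 weeks the list leaned the other way without a single call. Of 34 genes 33 had a negative difference from WT, with a median of -0.21 against 0.01 for all genes, yet 0 were called (0.784% of all genes were called higher and 0.0894% lower) and 11 had an unadjusted p below 0.05. Fcgr3 (-0.93, adjusted p = 0.214), Ms4a7 (-0.44 ± 0.15, adjusted p = 0.162) and Csf1r (-0.39 ± 0.12, adjusted p = 0.145, the lowest of the list) were among the largest, and the resident type genes had a median of -0.08. Csf1r measured 7.28, 6.99, 7.10 and 7.28 in srKO, and 2 of these arrays lay below every WT array. Here too the WT arrays moved the count: 10 genes were called lower against WT replicates 1 to 4 alone and 1 against WT replicates 5 to 8 alone. For these fits as well the share of all genes called is not given. Nor is the share of all genes with an unadjusted p below 0.05, here or in the comparisons below.

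In lrKO testes of 2 weeks 0 of 34 genes were called against WT (0.0368% of all genes were called higher and 0.0631% lower), with 3 unadjusted p below 0.05. The median difference was 0.01, and the values lay between -0.35 ± 0.20 for Lyve1 and 0.54 ± 0.18 for Mpeg1, the gene of the pore-forming protein perforin-2 (adjusted p = 0.364).

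Set directly against each other at 2 weeks, prKO and srKO differed in 21 genes of the list, against 12 between prKO and WT. In prKO 21 genes were called higher and 0 lower than in srKO (6.90% of all genes were called higher and 4.85% lower), with a median of 0.54. All 4 resident type genes were among them (median 1.07), led by Lyve1 (1.59 ± 0.23, 3.00-fold, adjusted p = 0.00019) and Mrc1 (1.18 ± 0.18, 2.27-fold), and all 4 leukocyte surface genes were called as well. C1qb measured 8.73, 8.56, 8.69 and 9.16 in prKO, against 7.79, 7.56, 7.72 and 7.67 in srKO, with no overlap (1.10 ± 0.17, adjusted p = 0.000314). Without prKO replicate 4, the highest prKO array in 23 of 34 genes, 12 genes were called, and the share of all genes is not given. Relative to lrKO, prKO had 9 genes called higher and 1 lower (10.4% and 6.00% of all genes), with Lyve1 at 1.90 ± 0.23 and with Mpeg1 as the lower one (-0.94 ± 0.21, adjusted p = 0.00525). Between srKO and lrKO 0 were called (1.54% of all genes were called higher and 0.405% lower), with a median of -0.25 and 11 unadjusted p below 0.05.

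**Figure D2:**
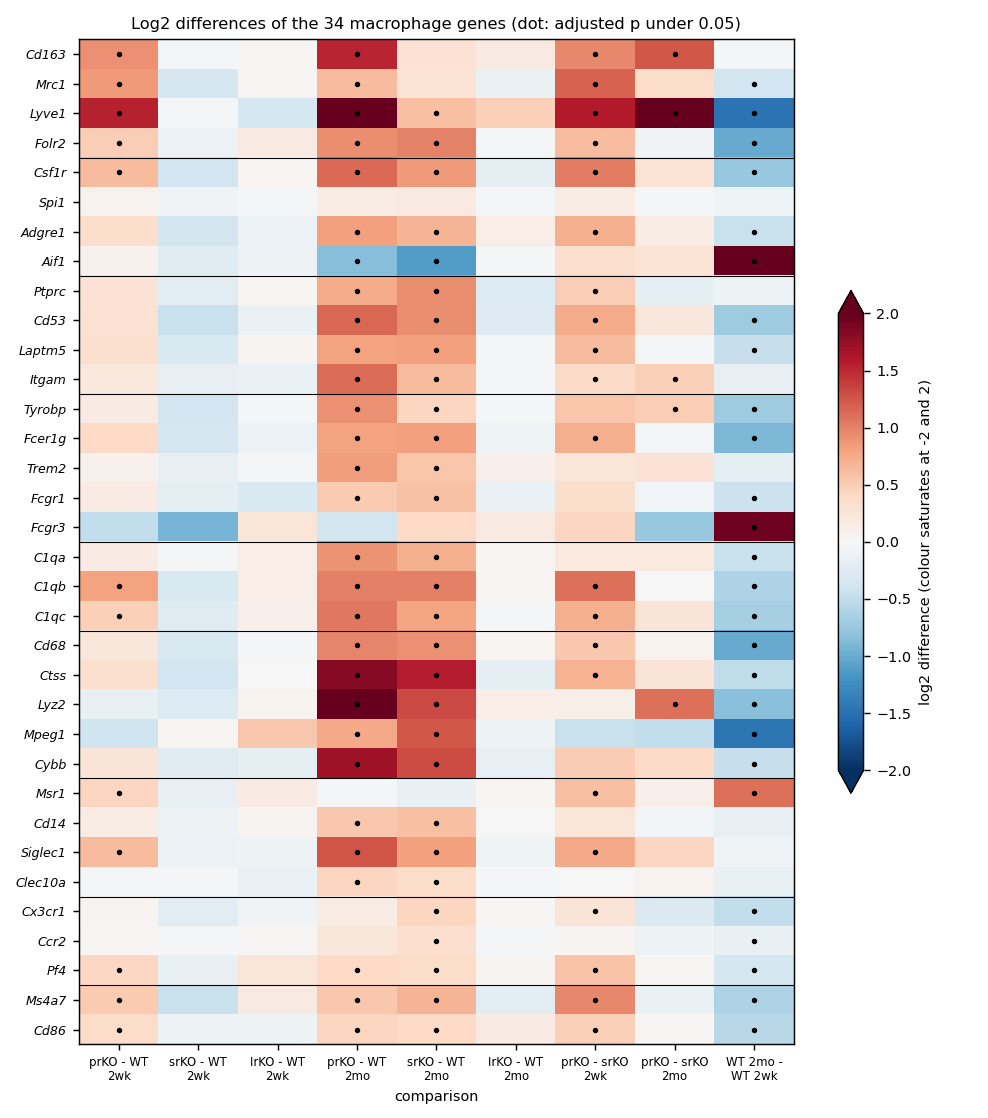
Log2 differences of the 34 genes (rows, grouped by role, resident type first) in 9 comparisons (columns), with colour for the difference and a dot for an adjusted p below 0.05 in limma. The prKO and srKO columns at 2 months hold 28 higher calls each, and the lrKO columns hold none.

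At 2 months most of the list was higher in both prKO and srKO testes. In prKO 28 of 34 genes were called higher than in WT and 1 lower, with a median of 0.82 against 0.02 for all genes, and 11 of the 29 calls were at least 2-fold. In the same comparison 26.0% of all genes were called higher and 22.4% lower. In srKO the counts were again 28 higher and 1 lower, with a median of 0.66 against 0.03 for all genes and 6 calls of at least that size, while 14.7% of all genes were called higher and 10.8% lower. The prKO and srKO comparisons share the same WT arrays. In lrKO 0 of 34 were called (0.110% of all genes were called higher and 0.0737% lower), the median was -0.03 and 1 unadjusted p was below 0.05. In RNA of whole testis, fewer or more macrophages and less or more of these transcripts per macrophage cannot be told apart. Markers of Leydig cells were higher in the same arrays, in 4 of 5 genes in prKO (median 1.36) and 3 of 5 in srKO (median 0.65), as were those of blood endothelium, in 6 of 6 (median 1.43) and 4 of 6 (median 0.51). Markers of spermatids were lower, in 4 of 4 genes in prKO (median -1.08) and 4 of 4 in srKO (median -1.87). The part of these cell types in the macrophage values was not tested.

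Of the resident type genes, Lyve1 and Cd163 were higher in prKO than in srKO at this age, and Mrc1 and Folr2 were not called between the lines. Relative to WT, in prKO all 4 were higher (median 1.22, against 0.81 for the other 30 genes), and in srKO 2 of 4 were (median 0.45, against 0.68 for the other 30). Lyve1 measured 8.52, 8.95 and 9.79 in prKO and 6.80, 7.63, 6.41 and 6.47 in srKO, against 6.05, 6.19 and 6.53 as lowest, median and highest in WT. The prKO arrays stood clear of all others (2.86 ± 0.23, 7.26-fold, adjusted p = 1.92e-08), and 2 of 4 srKO arrays lay in the WT range (0.60 ± 0.21, adjusted p = 0.0395). Cd163 measured 6.19, 6.85 and 6.51 in prKO and 5.13, 5.58, 5.17 and 5.25 in srKO, against 4.65, 5.02 and 5.16 in WT. It was 2.87-fold higher in prKO (1.52 ± 0.13, adjusted p = 4.92e-08) and not called in srKO (0.29 ± 0.12, adjusted p = 0.0899).

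Mrc1 and Folr2 did not follow that pattern alike. Mrc1 was higher in prKO (0.64 ± 0.14, adjusted p = 0.000781) and not called in srKO (0.28 ± 0.13, adjusted p = 0.115). It measured 9.24, 9.65 and 9.89 in prKO, against 8.73, 8.97 and 9.26 as lowest, median and highest in WT. The lowest prKO array thus lay inside the WT range. Folr2 measured 7.18, 7.68 and 7.42 in prKO and 7.34, 7.99, 7.13 and 7.49 in srKO, against 6.33, 6.46 and 6.76 in WT. Both lines lay above every WT array, by 0.92 ± 0.14 in prKO and 0.99 ± 0.13 in srKO. The direct comparison called 5 genes higher in prKO than in srKO and 0 lower (13.4% of all genes were called higher and 12.1% lower): Lyve1 (2.26 ± 0.26, 4.78-fold, adjusted p = 2.18e-05), Cd163 (1.23 ± 0.15, adjusted p = 3.82e-05), Lyz2 (1.10 ± 0.28, adjusted p = 0.00793), Tyrobp (0.49 ± 0.16, adjusted p = 0.0313) and Itgam (0.48 ± 0.16, adjusted p = 0.036). Mrc1 (0.36 ± 0.16, adjusted p = 0.095) and Folr2 (-0.06 ± 0.16, adjusted p = 0.799) were not among them.

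That count depended on single arrays. It was 12 without prKO replicate 1, which held the high epididymal level and the lowest prKO value in 27 of 34 genes, 8 without srKO replicate 2, the highest srKO array in 28 of 34, and 3 without prKO replicate 3, srKO replicate 1 or srKO replicate 4. Centring each array on its median gave 5 higher and 2 lower, with Mpeg1 and Cx3cr1 as the lower ones. Lyve1 and Cd163 were called in each of these fits. The share of all genes called in them is not given here, so the counts describe the members alone. Leaving out prKO replicate 3 ended the call of Lyz2 (adjusted p = 0.0778). Itgam was not called without prKO replicate 3 or srKO replicate 1, 3 or 4, and Tyrobp not without prKO replicate 2 or 3 or srKO replicate 1, 3 or 4.

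Averaged over the resident type genes and set against the mean of the other 30 in the same array, both as differences from the WT mean of that age, the resident excess was 0.54 to 0.81 in prKO at 2 weeks and 0.65 to 0.88 in prKO at 2 months. It was 0.06 to 0.16 in srKO, -0.10 to 0.09 in lrKO and -0.18 to 0.19 in WT at 2 weeks. At 2 months it was -0.21 to 0.04 in srKO, -0.03 to 0.30 in lrKO and -0.15 to 0.21 in WT. The prKO arrays of both ages therefore had larger values than any other array, which is a description of the arrays, since the 4 genes were picked out with earlier results known.

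**Figure D3:**
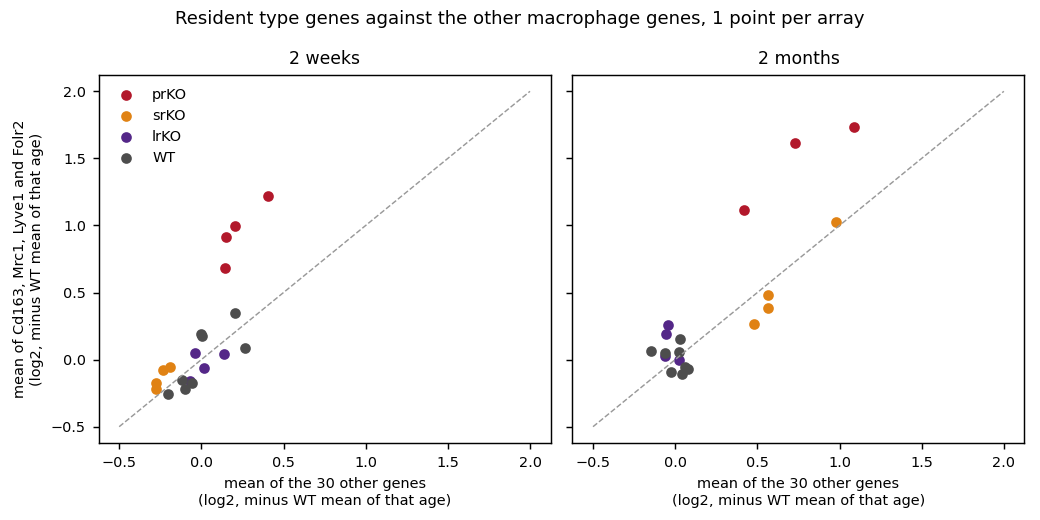
Mean of the 4 resident type genes (vertical axis) against the mean of the other 30 genes (horizontal axis), both in log2 units relative to the WT mean of that age, with 1 point per array and a dashed line of equality. The 7 prKO arrays lie above the line, and the 4 srKO arrays of 2 months lie close to it, shifted to higher values on both axes.

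Genes of the lysosome and of microbial killing had the largest median difference of all roles at 2 months, with 5 of 5 higher in prKO (median 1.69) and 5 of 5 in srKO (median 1.31). Ctss, the gene of the lysosomal protease cathepsin S, measured 8.09, 8.77 and 9.57 in prKO and 8.39, 9.12, 8.37 and 8.33 in srKO, against 6.69, 6.98 and 7.20 in WT. Each array of both lines exceeded every WT array, by 1.83 ± 0.21 in prKO (3.55-fold, adjusted p = 9.39e-07) and 1.56 ± 0.19 in srKO (2.96-fold, adjusted p = 4.92e-06). Lyz2, the gene of the macrophage lysozyme, measured 9.14, 9.20 and 10.43 in prKO and 8.35, 9.25, 8.03 and 8.32 in srKO, against 6.88, 7.11 and 7.76 in WT. It was 5.36-fold higher in prKO (2.42 ± 0.25) and 2.50-fold higher in srKO (1.32 ± 0.22, adjusted p = 0.000183). Its near-identical neighbour Lyz1 lay between 5.62 and 5.75 in prKO and between 5.21 and 6.10 in srKO, against 4.85 to 5.34 in WT, and how far the 2 probe sets share signal was not tested. Cybb, the catalytic subunit of the phagocyte NADPH oxidase, was higher by 1.69 ± 0.21 in prKO and 1.31 ± 0.19 in srKO. Mpeg1 was higher by 0.75 ± 0.17 in prKO and 1.24 ± 0.15 in srKO, and Cd68, a lysosomal membrane gene, by 0.98 ± 0.17 and 0.92 ± 0.16 in the same order of lines.

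Surface and signalling genes followed. Among the lineage genes Csf1r measured 7.49, 8.22 and 8.06 in prKO and 7.50, 8.06, 7.45 and 7.56 in srKO, against 6.60, 6.78 and 6.97 in WT, with no overlap (1.13 ± 0.14 in prKO and 0.85 ± 0.13 in srKO). Adgre1 was higher by 0.82 and 0.68 in prKO and srKO, while Spi1 differed by 0.15 ± 0.08 (adjusted p = 0.146) and 0.17 ± 0.08 (adjusted p = 0.105). All 4 leukocyte surface genes were higher in both lines: the common leukocyte antigen gene Ptprc (CD45; 0.75 and 0.92), the tetraspanin gene Cd53 (1.15 and 0.92), Laptm5 (0.80 and 0.83) and the complement receptor chain gene Itgam (1.12 and 0.64), with the prKO value given before the srKO value. Of the Fc receptor and adaptor genes 4 of 5 were higher in each line, among them the signalling adaptors Tyrobp (0.92 and 0.43) and Fcer1g (0.81 and 0.83), the phagocytic receptor gene Trem2 (0.84 and 0.55) and the IgG receptor gene Fcgr1 (0.53 and 0.58). All 3 C1q chains were higher in both, by 0.90 to 1.05 in prKO and by 0.71 to 1.00 in srKO.

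The chemokine receptor genes were called in 1 line. Cx3cr1, the receptor for Cx3cl1, measured 7.59, 7.94, 7.57 and 7.68 in srKO, against 7.08, 7.24 and 7.54 in WT (0.43 ± 0.09, adjusted p = 0.00152), and in prKO it measured 7.20, 7.61 and 7.42 (0.14 ± 0.10, adjusted p = 0.267). Ccr2, the monocyte receptor for Ccl2, was higher in srKO (0.34 ± 0.10, adjusted p = 0.0162) and not called in prKO (0.23 ± 0.11, adjusted p = 0.0912). Ccr2 was dim, with 13 of 39 arrays at or below the filter value of 4.62. The direct comparison of prKO with srKO called neither (Cx3cr1 -0.29 ± 0.11, adjusted p = 0.069, or 0.0445 after centring each array, and Ccr2 -0.11 ± 0.12, adjusted p = 0.562). The lectin gene Clec10a was dim as well, with 32 of 39 arrays at or below that value. It was called higher in both lines (0.43 and 0.36) and counts among the 28 genes called higher in each. Its group mean exceeded the filter value only in prKO and srKO at 2 months (4.78 and 4.71). Clec10a was thus tested only through the groups in which it was called, so its calls cannot serve as support.

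Single arrays carried part of the srKO calls. Without srKO replicate 2 the calls of Ccr2, Clec10a, Lyve1 and Tyrobp were lost (adjusted p between 0.113 and 0.245), and Lyve1 also lost its call without srKO replicate 1 or without WT replicate 2, 3, 5, 7 or 8. In prKO, Cd14, Clec10a and Ms4a7 lost their calls without replicate 3 (adjusted p between 0.0506 and 0.105), and Ms4a7 without replicate 2. The prKO array with the high epididymal level had the lowest values of the 3 in most genes. Without it the prKO median was 1.05, with 29 genes called higher and 1 lower. How many of all genes were called without that array is not given.

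At 2 months prKO also differed from lrKO in 27 genes higher and 1 lower (25.4% and 20.1% of all genes), with a median of 0.85. The comparison of srKO with lrKO gave 27 higher and 1 lower (15.4% and 11.2% of all genes), with a median of 0.67. Of the resident type, prKO exceeded lrKO in 4 of 4 genes (median 1.16) and srKO in 2 of 4 (median 0.27).

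Spi1 encodes PU.1, a factor that binds purine-rich DNA in many myeloid promoters, so the start regions of the member genes were read for its recognition letters. RefSeq start regions of 250 bases before to 50 bases after the start (GRCm38.p6) were at hand for 23 of the 34 genes. The 6 letters GAGGAA stood on either strand in 16 of the 23 genes (69.6%) and in 31.3% of 27025 genes of all kinds. The longer form GAGGAAGT, which contains them, stood in 4 of 23 (17.4%) and in 3.69% of all genes, and the cAMP response element TGACGTCA in 0 of 23 and in 2.03% of all. A match describes letters in this window and no binding. The 4 genes with the longer form were higher in both prKO and srKO at 2 months: C1qc (1.05 and 0.79), Cd53 (1.15 and 0.92), Ctss (1.83 and 1.56) and Pf4 (0.39 and 0.37). Of all 34 members 28 were called higher in each of these comparisons, so their direction does not set these genes apart. A link between the letters and the differences was not tested. Their start regions are printed in the direction of transcription, with the match in capitals, which in each case lies on the opposite strand and so reads ACTTCCTC. C1qc lies at chr4:136892865-136893164 (minus strand), Cd53 at chr3:106790100-106790399 (minus), Ctss at chr3:95526536-95526835 (plus) and Pf4 at chr5:90772185-90772484 (plus).
C1qc: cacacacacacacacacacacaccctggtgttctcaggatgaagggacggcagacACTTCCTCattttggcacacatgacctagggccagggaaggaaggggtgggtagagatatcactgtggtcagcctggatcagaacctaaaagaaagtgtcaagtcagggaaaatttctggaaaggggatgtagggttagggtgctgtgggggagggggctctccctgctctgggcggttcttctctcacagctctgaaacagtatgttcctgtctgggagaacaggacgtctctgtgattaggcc
Cd53: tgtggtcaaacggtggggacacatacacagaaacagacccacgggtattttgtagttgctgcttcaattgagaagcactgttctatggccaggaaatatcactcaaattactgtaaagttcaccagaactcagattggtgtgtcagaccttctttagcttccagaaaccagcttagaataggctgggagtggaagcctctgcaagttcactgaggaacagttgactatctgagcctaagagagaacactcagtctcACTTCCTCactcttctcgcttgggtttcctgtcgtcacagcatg
Ctss: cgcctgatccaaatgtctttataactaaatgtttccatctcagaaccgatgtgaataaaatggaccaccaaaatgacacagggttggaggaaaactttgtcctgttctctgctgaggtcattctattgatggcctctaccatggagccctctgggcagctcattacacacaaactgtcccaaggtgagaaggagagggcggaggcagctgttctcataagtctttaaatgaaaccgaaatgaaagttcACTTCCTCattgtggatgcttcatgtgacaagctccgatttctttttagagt
Pf4: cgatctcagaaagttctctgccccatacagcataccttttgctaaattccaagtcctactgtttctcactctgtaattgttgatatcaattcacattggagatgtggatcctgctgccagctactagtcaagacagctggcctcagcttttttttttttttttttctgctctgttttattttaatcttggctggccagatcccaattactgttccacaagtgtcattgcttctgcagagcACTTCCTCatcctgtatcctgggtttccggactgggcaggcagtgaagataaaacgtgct
The first capital letter lies at position -195 from the start in C1qc, at 6 in Cd53, at -2 in Ctss and at -10 in Pf4.

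Aif1, known as Iba1 in macrophages and also known to be transcribed in spermatids, ran against the list. It was the only member called lower in prKO (-0.84 ± 0.17, adjusted p = 0.000351) and in srKO (-1.11 ± 0.15, adjusted p = 1.86e-05) at 2 months. Its values were 9.88, 9.13 and 9.98 in prKO and 9.44, 9.43, 9.25 and 9.48 in srKO, against 10.04, 10.57 and 10.82 in WT, with all 7 arrays below every WT array. The spermatid markers that were lower in the same arrays included the protamine gene Prm1 (-1.53 ± 0.34 and -2.33 ± 0.31). The part of spermatids in the Aif1 signal was not tested.

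Normal testes were also compared between the ages. In WT at 2 months 23 of 34 genes were lower and 3 higher than in WT at 2 weeks, and 55.0% of all genes were called lower and 26.7% higher in the same comparison. The median was -0.45 for the list and -0.24 for all genes. Normalising the arrays again moved the median of all genes to between -0.13 and -0.12 and that of the list to between -0.34 and -0.33, with 22 genes lower and 3 higher. With WT replicates 5 to 8 alone 13 were lower and 3 higher, and the list median was -0.18. The median of all genes with these WT arrays is not given. Nor are the shares of all genes called in the alternative fits, so their counts describe the members alone.

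Lyve1 had 6.05, 6.19 and 6.53 as lowest, median and highest value in WT at 2 months, against 7.12, 7.66 and 8.40 at 2 weeks, and was 2.79-fold lower (-1.48 ± 0.18). Mpeg1 had 6.73, 7.12 and 7.20 at 2 months, against 7.61, 8.61 and 9.06 at 2 weeks (-1.45 ± 0.14). Folr2 had 6.33, 6.46 and 6.76 at 2 months, against 6.97, 7.44 and 8.00 at 2 weeks, and was lower too. In none of these 3 genes did the ages overlap. Cd68 (-1.01 ± 0.12), Fcer1g (-0.90 ± 0.13) and Lyz2 (-0.83 ± 0.16) were other large differences. Cd163 (-0.03 ± 0.09), Siglec1 (-0.07 ± 0.13), Spi1 (-0.09 ± 0.05) and Ptprc (-0.09 ± 0.12) were not called, so of the resident type 3 of 4 were lower.

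The 3 members that were higher at 2 months were Aif1, Fcgr3 and Msr1. Aif1 lay between 10.04 and 10.82 in WT at 2 months, against 5.87 to 6.51 at 2 weeks, a 19.8-fold difference (4.31 ± 0.11, adjusted p = 4.56e-28). Fcgr3, an IgG receptor gene, was 3.86-fold higher (1.95 ± 0.28) and Msr1 2.15-fold (1.10 ± 0.11). The spermatid markers were higher at 2 months by a median of 6.69 in the same comparison, while blood endothelial markers were lower in 6 of 6 genes (median -1.25) and Sertoli markers in 6 of 7 (median -1.63). The part of these cell types in the values was not tested. Fcgr3 had the widest range of the 34 genes in WT at each age, from 8.61 to 10.28 at 2 months and from 6.32 to 8.15 at 2 weeks. It resembles Fcgr2b in sequence, and whether the probe sets share signal was not tested. Fcgr2b averaged 6.67 in WT at 2 months and 7.29 in WT at 2 weeks, the opposite direction to Fcgr3.

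**Figure D4:**
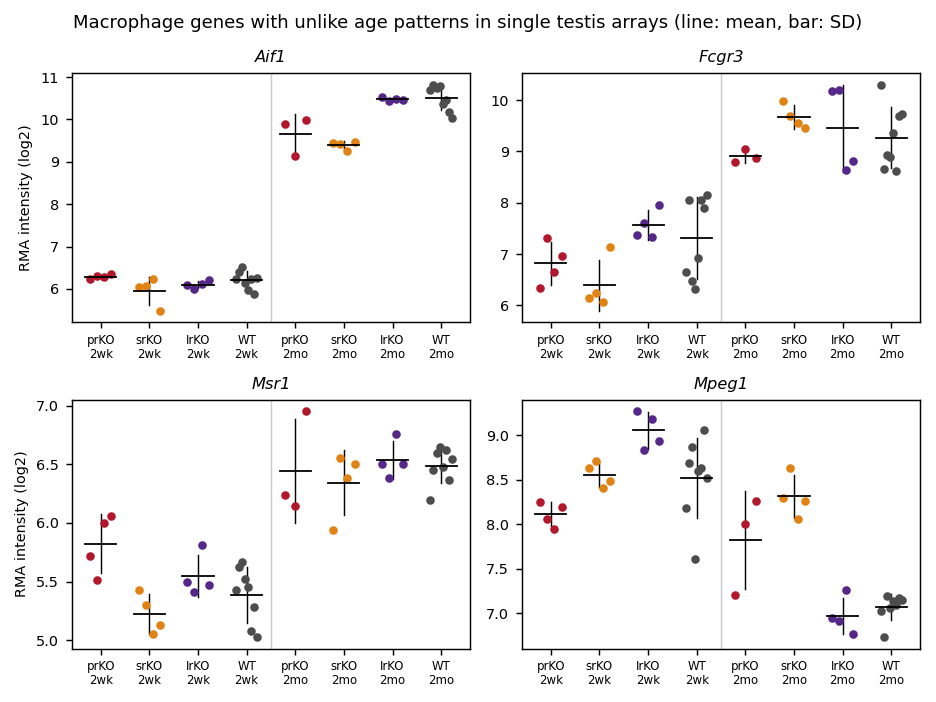
Log2 intensity (vertical axis, RMA) of Aif1, Fcgr3, Msr1 and Mpeg1 in single arrays of the 8 groups, with points for arrays, horizontal lines for means and vertical bars for the SD. Aif1 was about 4.31 log2 units higher in WT at 2 months than in WT at 2 weeks and lower again in prKO and srKO at 2 months, and Mpeg1 was lower in WT at 2 months.

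The age change itself differed from WT in prKO and srKO. In prKO the change between ages was more positive than in WT for 17 genes and more negative for 1 (15.8% and 12.3% of all genes), with a median of 0.47, and in srKO for 27 genes and 1 gene (8.49% and 8.76%), with a median of 0.88. Lyz2 led in prKO (2.57 ± 0.29, adjusted p = 3.09e-08), with means of 9.59 at 2 months and 7.85 at 2 weeks in prKO, against 7.17 and 8.00 in WT. Ctss led in srKO (1.95 ± 0.26, adjusted p = 9.03e-07), with means of 8.55 at 2 months and 7.12 at 2 weeks in srKO, against 6.99 and 7.50 in WT. Aif1 was the negative gene in both (-0.93 ± 0.21 in prKO and -0.87 ± 0.20 in srKO). Without prKO 2-month replicate 3 the prKO count was 11, 9 positive and 2 negative, and the share of all genes in that fit is not given. In lrKO 0 genes were called (0.0526% of all genes were positive calls and 0.0474% negative), with 3 unadjusted p below 0.05.

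Mrc1 and Lyve1 were called higher in prKO than in WT at both ages. Lyve1 averaged 9.09 ± 0.65 (SD, n = 3) in prKO at 2 months, against 9.25 ± 0.44 (SD, n = 4) in prKO at 2 weeks, and its change between ages differed from that of WT (1.32 ± 0.32, adjusted p = 0.00174), where it was lower at 2 months. For Mrc1 the change between ages was not called different from WT (-0.21 ± 0.21, adjusted p = 0.521).

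Genes that act around macrophages were read from further lists, whose counts stand beside the share of all genes called higher than WT, which was 7.90% in prKO at 2 weeks, 0.784% in srKO at 2 weeks, 26.0% in prKO at 2 months and 14.7% in srKO at 2 months. Of the growth factors and attractants, 7 of 13 were higher and 0 lower in prKO at 2 months and 8 of 13 higher in srKO. Both Csf1r ligands, of which Il34 was picked out after its values were seen, were among them: Csf1 (0.70 ± 0.13 in prKO and 0.73 ± 0.12 in srKO) and Il34 (0.42 ± 0.10 and 0.36 ± 0.09). At 2 weeks 3 of 13 were higher in prKO, with Tgfb1 (0.87 ± 0.07) and Csf1 (0.44 ± 0.10), and 1 in srKO, Tgfb1 (0.38 ± 0.07). Of 9 macrophage lineage factors 6 were higher in prKO at 2 months, led by Maf (1.19 ± 0.15), which acts in resident macrophages, and 4 in srKO (Maf 0.84 ± 0.13). In prKO at 2 weeks 4 of 9 were higher, with Irf8 (0.96 ± 0.09) and Maf (0.86 ± 0.17). Of 12 genes for the uptake of dead cells and debris 8 were higher in prKO at 2 months and 5 in srKO, among them the uptake receptor gene Mertk (1.17 ± 0.11 and 0.48 ± 0.10). At 2 weeks 4 of the 12 were higher in prKO, led by the lipid scavenger gene Cd36 (1.99 ± 0.24) and Stab1 (0.86 ± 0.12). The part of cells other than macrophages in the values of these 12 genes was not tested. Lysosomal genes outside the list were higher in 11 of 11 cases in both lines at 2 months (median 1.60 in prKO and 0.76 in srKO). In prKO at 2 weeks 9 of 11 were higher. Many of these lysosomal genes are also used by cells other than macrophages.

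The Leydig and endothelial markers that were higher beside the list reached the following levels. The mean of 5 Leydig genes was 10.60 to 11.10 in prKO and 8.83 to 9.12 in srKO, against 8.18 to 9.15 in WT, at 2 weeks, led by the steroidogenic gene Star (2.98 ± 0.23 in prKO). At 2 months it was 10.10 to 10.94 in prKO and 9.60 to 10.20 in srKO, against 8.89 to 9.43 in WT. The mean of 6 blood endothelial genes was 7.67 to 7.96 in prKO, against 7.11 to 7.95 in WT, at 2 weeks, and 7.02 to 7.95 in prKO and 6.62 to 7.10 in srKO, against 6.08 to 6.36 in WT, at 2 months.

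Lyve1 is also known from lymphatic vessels and Mrc1 from some endothelia. Of 4 lymphatic endothelial genes measured, 1 was higher and 1 lower in prKO at 2 months: Pdpn (1.02 ± 0.22) and the lymphatic factor gene Prox1 (-1.07 ± 0.14), with Flt4 at -0.09 ± 0.14. In that comparison 26.0% of all genes were called higher and 22.4% lower. The list was not uniform with age in WT: at 2 months Prox1 was higher than at 2 weeks (1.66 ± 0.10), Pdpn (-1.43 ± 0.18) and Reln (-1.21 ± 0.09) were lower and Flt4 was not called. Which cells gave these signals was not tested. In prKO at 2 weeks Flt4 was higher than in WT (0.38 ± 0.11, adjusted p = 0.0344) and Prox1 was not called (0.34 ± 0.12, adjusted p = 0.0661). The mean level of the 4 genes was 6.96 to 7.52 in prKO, against 6.80 to 7.29 in WT, at 2 weeks, and 6.52 to 7.27 in prKO, against 6.81 to 6.95 in WT, at 2 months.

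Other leukocytes were read next, and at 2 months 26.0% of all genes were called higher in prKO and 14.7% in srKO. Of 5 T cell genes 0 were higher in prKO or srKO at either age, and 1 (Cd4, -0.28 ± 0.09) was lower in prKO at 2 months. Of 4 neutrophil genes 2 were higher in prKO at 2 months (Csf3r 0.28 ± 0.08 and Elane 0.22 ± 0.08) and 0 in srKO, and of 3 mast cell genes 2 were higher in prKO at 2 months (Cpa3 0.84 ± 0.18 and Tpsb2 0.33 ± 0.10) and 1 at 2 weeks (Cpa3 1.41 ± 0.38). Mean levels at 2 months were 4.79 to 5.01 in prKO, against 4.89 to 5.13 in WT, for 6 T cell genes, and 4.47 to 4.79, against 4.49 to 4.67, for 7 neutrophil genes. Of the MHC class II genes, which mark antigen-presenting cells and the tubule-bound macrophages, H2-Aa and H2-Ab1 separated the lines in the other direction to Lyve1. In srKO at 2 months 2 of 6 were higher, H2-Aa (1.34 ± 0.20, 2.54-fold, adjusted p = 5.81e-05) and H2-Ab1 (0.73 ± 0.15, adjusted p = 0.00101), while in prKO 0 of 6 were called (H2-Aa -0.32 ± 0.23). Set directly against each other, prKO was lower than srKO in H2-Aa (-1.66 ± 0.25, adjusted p = 0.00026) and H2-Ab1 (-0.97 ± 0.18, adjusted p = 0.00123), with all 3 prKO arrays below every srKO array for both. Of 5 dendritic cell genes 0 were called in either line against WT at 2 months.

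**Figure D5:**
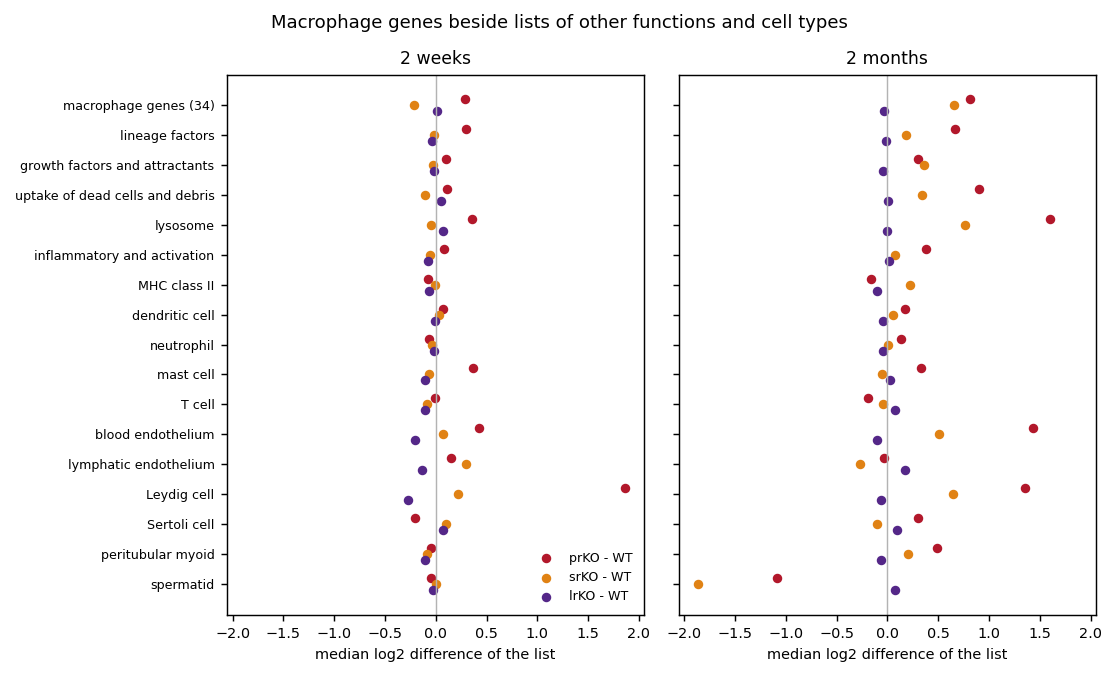
Median log2 difference from WT (horizontal axis) of the 34 macrophage genes and of 16 lists of other functions and cell types (rows), at 2 weeks (left) and 2 months (right), with 1 point per line. The macrophage median was 0.82 in prKO and 0.66 in srKO at 2 months, where the lysosome list was at 1.60 and 0.76 and the T cell list at -0.19 and -0.04.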

How the data were processed

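RNA of whole mouse testis was measured on Affymetrix arrays, 39 in all. The authors deposited a table of log2 intensities, 1 column per array, normalised with RMA per the submitters' processing notes, and no source used here gives more of that step. Array medians were 5.96 to 6.02 at 2 weeks and 5.81 to 5.96 at 2 months, and the number of arrays limits the precision.

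Of 41345 probe sets, 23521 carry 1 gene symbol in the platform annotation, 1814 several and 16010 none listed; no gene was named from a probe set with several. A gene with several probe sets was read from the one with the highest mean. To be tested, a gene needed 1 or more of its 8 group means above 4.62, the 25th percentile of the whole table, and 19007 of 22180 genes passed. The tests were those of limma 3.58.1 in R 4.3.3 (lmFit and eBayes, two-sided, Benjamini-Hochberg adjustment over all tested genes, threshold 0.05), with all 4 genotypes of an age in one fit and all 8 groups in one fit for comparisons between ages. The limma step was tested on simulated data. Replicates are numbered as biological replicates in the labels, and no 2 arrays held identical values.

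The members and lists were chosen with earlier results of these data known. All 34 members could be named, and of each other list up to 4 genes with the largest change in a comparison. The alternatives tried were other filters, averaged probe sets, normalising again, array weights, other eBayes settings, other sets of arrays in the fit, the replicate number as a block, WT replicates 1 to 4 or 5 to 8 alone, leaving out each array, and, added after seeing the data, leaving out the arrays high in epididymal genes. Promoter sequences are from RefSeq (GRCm38.p6).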

Additional observations from a re-analysis of the deposited data

Results flagged for a closer look

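The age change of 18 genes differed from that of WT in prKO and of 28 genes in srKO, by the interaction test in limma. The largest positive ones in prKO were Lyz2 (2.57), Ctss (1.51), Cybb (1.44), Lyve1 (1.32) and Mpeg1 (1.16), and in srKO Ctss (1.95), Lyz2 (1.59), Cybb (1.55), Cd53 (1.36) and C1qb (1.30), all in log2 units.

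Single arrays stood far from the rest of their group in 22 of 238 sets of 1 gene in 1 group of 4 to 8 arrays, where a rate of 1 in 20 would give 11.9. Genes of 1 array share that array, so the sets are not independent. In srKO at 2 months, replicate 2 was high in Ctss (9.12, next 8.39) and Itgam (6.52, next 6.07). In srKO at 2 weeks, replicate 4 was high in Fcgr3 (7.13, next 6.23) and replicate 2 low in Lyz2 (7.62, next 7.75). In prKO at 2 weeks, replicate 4 was high in Trem2 (6.95, next 6.51).

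In lrKO at 2 weeks, replicate 4 was low in Mrc1 (9.13, next 9.42), Fcgr1 (5.49, next 5.94) and Spi1 (6.42, next 6.53), and replicate 3 was high in Csf1r (7.81, next 7.54). In lrKO at 2 months, replicate 4 was high in Ctss (7.03, next 6.75) and low in C1qc (5.25, next 5.63) and Trem2 (6.31, next 6.44). Replicate 1 of that group was low in Laptm5 (5.54, next 5.68) and high in Clec10a (4.58, next 4.25), and replicate 3 was high in Pf4 (5.78, next 5.47).

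In WT at 2 weeks, replicate 3 was high in Lyz2 (8.70, next 8.07) and replicate 6 low in Cd14 (4.65, next 4.98). In WT at 2 months, replicate 4 was high in Lyz2 (7.76, next 7.24) and replicate 7 in Pf4 (5.70, next 5.51). Replicate 8 was low in Cd163 (4.65, next 4.92), replicate 2 in Mpeg1 (6.73, next 7.02) and replicate 7 in Clec10a (4.10, next 4.32).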

How the results depend on the processing

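Of the single-gene values recomputed under an alternative, 5493 kept their direction and side of the threshold, 288 lost a call, 161 gained one and 0 reversed. Of the counts of called members, 371 stayed within 1.5 times and 25 did not, and the cause was not tested. The shares of all genes called in the alternative fits are not given here, so the counts below describe the members alone. Against WT replicates 1 to 4 alone the count at 2 weeks was 5 in prKO and 10, all lower, in srKO. Against WT replicates 5 to 8 alone it was 22 in prKO, 1 in srKO and 1 in lrKO at 2 weeks, 16 for WT between the ages, 11 for the prKO age change and 1 for the lrKO age change. With array weights 4 genes were called in srKO against WT and 7 in srKO against lrKO at 2 weeks, all lower. With only the compared groups in the fit 6 were called in srKO against lrKO at 2 weeks and 3 in prKO against srKO at 2 months, and with all 8 groups in one fit 2 in srKO against lrKO at 2 weeks. Without the arrays high in epididymal genes, chosen after seeing the data, 12 were called in prKO against srKO at 2 months.

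Leaving out 1 array at a time, the count ran from 8 to 17 for prKO against WT, 12 to 20 against srKO and 7 to 11 against lrKO at 2 weeks. At 2 months it ran from 26 to 30 for prKO against WT, 3 to 12 against srKO and 25 to 30 against lrKO, from 25 to 29 for srKO against WT and 22 to 27 against lrKO. It ran from 25 to 28 for WT between the ages, 11 to 20 for the prKO age change and 26 to 30 for the srKO age change, and was 0 throughout for srKO and lrKO against WT and srKO against lrKO at 2 weeks, lrKO against WT at 2 months and the lrKO age change.

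The replicate numbers do not pair the arrays: of 23 arrays that share a number with a WT array, 4 deviated with it at a correlation over 0.1, and the range was -0.62 to 0.34. With the replicate number as a block 4 genes were called in prKO and 7, all lower, in srKO against WT and 1 in srKO against lrKO at 2 weeks, and 3 in prKO against srKO at 2 months. The block drops WT arrays whose number has no partner from the estimate. Dim genes limit what can be seen: Clec10a, Cd86 and Ccr2 lay at or below the filter value in 32, 14 and 13 of 39 arrays.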

Other observations

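Of 10 tested genes of inflammation and activation, 5 in prKO at 2 months were higher than in WT, where 26.0% of all genes were, led by Chil3, the gene of a chitinase-like protein of activated macrophages (3.06 ± 0.31, 8.31-fold, adjusted p = 2.31e-07 in limma), and the haem oxygenase gene Hmox1 (1.16 ± 0.19). In srKO 2 of 10 were higher, where 14.7% of all genes were, among them Hmox1 (0.61 ± 0.17), and Chil3 was not called (-0.26 ± 0.28, adjusted p = 0.559). Chil3 was dim outside prKO at this age: its WT mean was 4.53, below the filter value, and its srKO mean was lower still. The sizes of its differences in prKO, the 8.31-fold value included, are thus measured against dim signals. The direct comparison gave 3.32 ± 0.35 for Chil3 in prKO against srKO (adjusted p = 8.58e-06), with all 3 prKO arrays above every srKO array. The attractant gene Ccl8 ran the other way, at -1.17 ± 0.24 in prKO against srKO (adjusted p = 0.00212), with 1.20 ± 0.19 in srKO against WT and 0.03 ± 0.21 in prKO against WT.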
